A study of Mus musculus with 6 samples.

Results

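The genes described here handle superoxide, the one-electron reduction product of oxygen. They are the superoxide dismutases Sod1, Sod2 and Sod3, the peroxide-removing enzymes Cat and Gpx1, and the phagocyte oxidase subunits Cybb, Cyba, Ncf1 and Ncf4. They were taken by gene symbol from the deposited tables, and all 9 were found among the 15634 listed genes. RNA sequencing was done on mesenchymal stem cells (MSCs, adherent stromal cells able to form bone, fat and cartilage) grown from the marrow of wild-type C57BL/6J mice in medium with 15% fetal bovine serum. The TNF group held 3 libraries of cells stimulated with TNF-α, an inflammatory cytokine, at 10 ng/mL for 24 h, and the Control group held 3 libraries of cells left without stimulation. The labels give no age or sex of the mice and do not say whether the replicates were separate cultures or animals, so p-values measure only the spread between these libraries, which may be technical.

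The phagocyte oxidase moves electrons from NADPH across a membrane onto oxygen and so makes superoxide. Its membrane core is formed by the products of Cybb and Cyba, and those of Ncf1 and Ncf4 join it from the cytosol with further subunits, among them a Rac GTPase. Superoxide dismutases turn superoxide into hydrogen peroxide in different places: SOD1 mainly in the cytosol, SOD2 in the mitochondrial matrix and SOD3 outside the cell. Catalase and glutathione peroxidase then remove the peroxide. The oxidase is best known from neutrophils and macrophages, where its loss causes chronic granulomatous disease, and Sod2 is a classical target gene of TNF and NF-kB signalling.

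Total counts ran from 45629973 to 55149746 in the TNF libraries and from 54141846 to 77142418 in the Control libraries. Reads of 18S ribosomal RNA made up 19.4% of the counts of TNF library 2 and between 1.11% and 3.55% of those of the other 5 libraries. Because TPM, a level per transcript length, sums to the same total in every library, the 18S share of TNF library 2 left less of that total for the other genes together. Control library 2 was the deepest and had the largest share of mitochondrially encoded reads, 4.67% against 2.72% to 3.26% in the other 5. The 14 MSC and stromal markers, among them Pdgfra, Pdgfrb, Prrx1 and Col1a1, were all listed. By the call rule given below 4 were higher and 3 lower in TNF, beside 16.0% higher and 16.4% lower over all tested genes. Their summed level was 4951 to 5724 TPM in TNF libraries and 7387 to 8427 TPM in Control libraries. Much of this sum was Col1a1 (mean 1089 TPM in TNF, 2369 TPM in Control) and Col1a2 (1912 and 3274 TPM). Vcam1 (592 and 79.8 TPM) and Cd44 (184.5 and 80.9 TPM) went the other way, so the sum does not stand for every marker. The cultures also held RNA of macrophages: 21 of 22 macrophage and monocyte markers were listed, with a summed level of 2579 to 3168 TPM in TNF libraries and 3858 to 5381 TPM in Control libraries. The cells that carry each transcript were not told apart, and in such bulk RNA fewer cells of a type and less RNA per cell cannot be told apart.

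Promoter windows of 250 bases before and 50 bases after the transcript start are shown for the mitochondrial dismutase and the catalytic oxidase subunit, which changed most, and for the cytosolic dismutase and the other membrane subunit, which were not called. They come from RefSeq on build GRCm38.p6, whereas the submitters' processing notes name GRCm39 for the counts. Of the 9 genes, 7 had a window in this table. Capitals mark matches to the NF-kB consensus, to TTCNNNGAA (the form bound by STAT factors), to the form bound by interferon regulatory factors (IRF; GAAA, any 2 bases, GAAA) and to GAGGAA (an ETS core).
Sod2, chr17:13007589-13007888, plus strand: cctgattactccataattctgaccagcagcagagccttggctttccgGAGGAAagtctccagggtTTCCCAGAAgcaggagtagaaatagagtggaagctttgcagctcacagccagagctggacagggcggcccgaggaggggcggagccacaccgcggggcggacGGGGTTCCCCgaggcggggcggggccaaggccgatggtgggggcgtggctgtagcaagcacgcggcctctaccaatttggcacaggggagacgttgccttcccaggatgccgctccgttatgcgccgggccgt
Sod1, chr16:90220512-90220811, plus strand: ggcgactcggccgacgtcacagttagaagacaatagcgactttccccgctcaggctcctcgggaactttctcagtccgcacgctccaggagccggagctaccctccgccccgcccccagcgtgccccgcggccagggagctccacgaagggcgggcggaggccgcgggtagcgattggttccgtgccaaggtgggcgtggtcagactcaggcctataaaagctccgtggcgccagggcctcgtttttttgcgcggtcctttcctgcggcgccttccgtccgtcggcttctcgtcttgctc
Cybb, chrX:9469275-9469574, minus strand: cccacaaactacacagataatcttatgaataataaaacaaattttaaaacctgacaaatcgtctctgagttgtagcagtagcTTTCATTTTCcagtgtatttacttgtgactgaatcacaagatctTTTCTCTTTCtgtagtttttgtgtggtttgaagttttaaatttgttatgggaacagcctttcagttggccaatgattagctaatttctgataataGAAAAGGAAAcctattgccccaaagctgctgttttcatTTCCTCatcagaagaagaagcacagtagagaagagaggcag
Cyba, chr8:122432891-122433190, minus strand: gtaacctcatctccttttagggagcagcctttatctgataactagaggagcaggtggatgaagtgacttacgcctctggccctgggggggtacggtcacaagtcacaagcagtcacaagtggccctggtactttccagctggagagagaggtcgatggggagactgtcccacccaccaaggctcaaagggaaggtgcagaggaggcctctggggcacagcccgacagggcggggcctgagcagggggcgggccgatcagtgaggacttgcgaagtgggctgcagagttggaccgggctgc

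The Sod2 window held 1 NF-kB consensus position, which matched on both strands and began 83 bases before the start. The same consensus, searched on both strands, was present in 8.46% of the 32851 windows of the table. Sod2 also had 1 match to TTCNNNGAA (8.3% of all windows), 1 to GAGGAA (28.3%) and 4 to the GC box GGGCGG (35.7%). The Cybb window held 3 matches to the IRF form, beginning 168, 124 and 29 bases before the start, and 3.44% of all windows held at least 1. It also had 1 GAGGAA match on the opposite strand, 9 bases after the start, and no GC box. The windows of Sod1 and Cyba had none of the 4 capitalised motifs, while GGGCGG was found 4 times in Sod1 and 2 times in Cyba. The antioxidant response form TGACNNNGC, present in 12.4% of all windows and not capitalised, was also searched, and its 1 match among the 7 windows was in Sod1, on the opposite strand, beginning 56 bases before the start. The NF-kB consensus was also matched in the windows of Cat and Gpx1, which were not called in the comparison of TNF with Control. The IRF form and TTCNNNGAA each had 1 match in the window of Ncf1, and these matches overlap. A match is a run of letters and not a measured binding site.

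Cells with and without TNF-α were compared to find the transcripts that differ after stimulation. In this set Sod2 and Cybb were several times higher with TNF, Ncf4 was moderately higher, and the other 6 genes did not pass the test. Sod2 rose 7.77-fold, Cybb 4.79-fold and Ncf4 1.69-fold in the fit of counts. Counts were put on a common scale as CPM, counts relative to the TMM-scaled library total. The call rule, an edgeR quasi-likelihood p under 0.05 after Benjamini-Hochberg adjustment over all 15547 tested genes, called 3 of the 9 genes higher and 0 lower in TNF libraries. Over all genes 16.0% were called higher and 16.4% lower (2489 and 2550 genes, or 1612 and 2571 with library totals in place of TMM factors), 32.4% in all. Sod2 and Cybb were also at least 2-fold higher, as were 5.81% of all tested genes, and none of the 9 was called and at least 2-fold lower, where 5.22% of all were. At an unadjusted p under 0.05, 1 of the 9 was lower (Gpx1); DESeq2 called 1 lower and limma-voom 0. The median log2 fold change of the 9 genes was 0.21, beside -0.0046 over all tested genes. The groups did not overlap in 4 of the 9, where 48.7% of all tested genes showed no overlap.

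**Figure D1:**
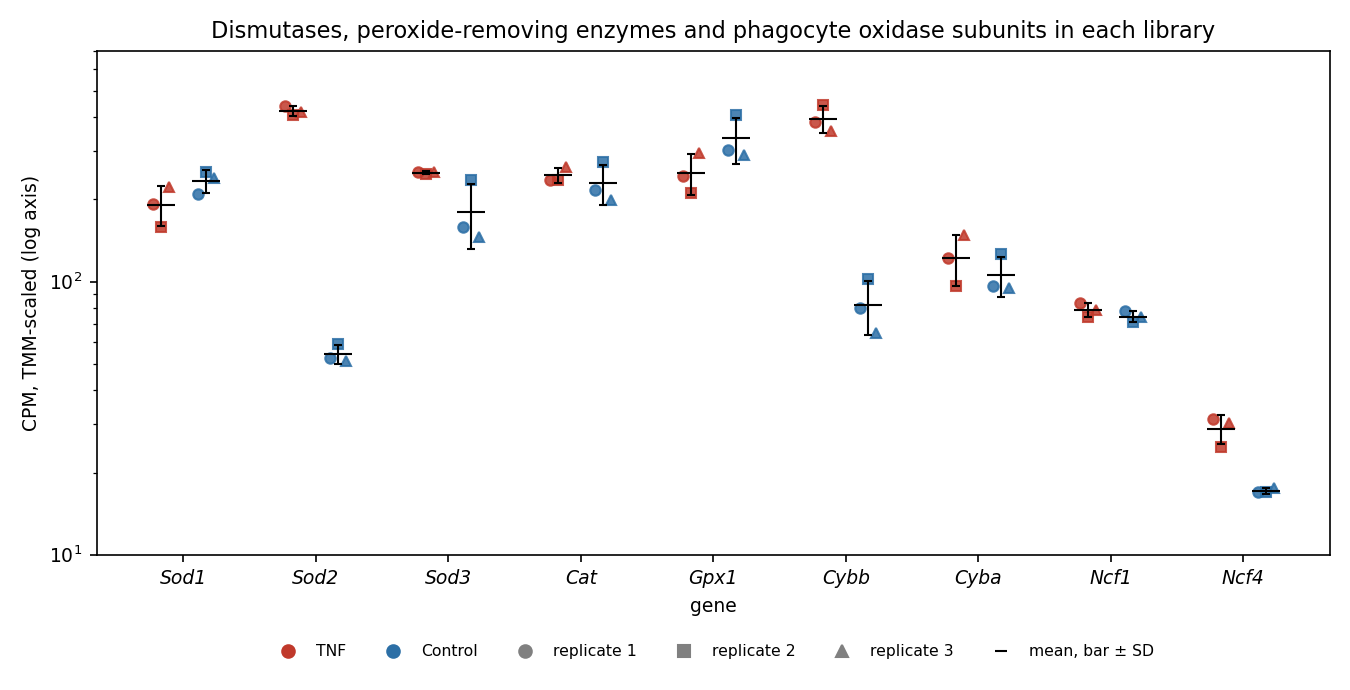
Library-scaled counts (CPM with TMM factors, log axis) of the 9 genes in 3 TNF and 3 Control libraries, with symbols for replicates and bars for the mean ± SD. The TNF points of Sod2 (407 to 439 CPM) and Cybb (356 to 443.5 CPM) lie far above the Control points (51.0 to 59.2 CPM and 65.0 to 102 CPM), while those of Cat, Cyba, Ncf1, Sod1 and Gpx1 overlap.

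Sod2 encodes the manganese dismutase of mitochondria. It had 439, 407 and 418.5 CPM in TNF libraries 1, 2 and 3, against 52.7, 59.2 and 51.0 CPM in Control libraries 1, 2 and 3. Every TNF library was above every Control library, and the spread within each group was small beside the gap. The means were 422 ± 16.4 CPM in TNF and 54.3 ± 4.30 CPM in Control (SD, n = 3 each), a log2 fold change of 2.96 ± 0.10 SE (edgeR adjusted p = 3.764e-07). The fold change of Sod2 was the 211th highest of the 15547 tested genes.

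Sod1, the abundant copper and zinc dismutase of the cytosol, had 193, 159 and 223 CPM in TNF libraries and 209, 253 and 240 CPM in Control libraries. The groups overlapped, since TNF library 3 was above Control library 1. Its log2 fold change was -0.29 with a 95% interval of -0.60 to 0.02, and it was not called (edgeR adjusted p = 0.138). Sod1 overlaps Scaf4 on the opposite strand in GENCODE M21, and a stretch of 465 bases is 97.8% identical to Gm8566, which was not among the listed genes. Sod2 transcripts share stretches of 200 to 210 bases, at least 90% identical, with transcripts of 11 other genes. The strand setting of the counting is not given in the sources used here, so the division of reads between Sod1 and Scaf4 is uncertain. For the similar stretches it is uncertain as well. Some of these, among them that of Gm8566, lie on the same strand, where a strand setting would not separate the reads.

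Sod3, the dismutase secreted to the cell surface and matrix, had 252, 247 and 252 CPM in TNF libraries, against 159, 235 and 146 CPM in Control libraries. All TNF values were above all Control values, but Control library 2 came close to them. The means were 251 ± 2.83 CPM in TNF and 179.8 ± 47.9 CPM in Control, with a log2 fold change of 0.48 (95% interval 0.10 to 0.86), and Sod3 was not called (edgeR adjusted p = 0.0582). Without Control library 2 its log2 fold change was 0.72 and its adjusted p 0.000329.

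Per transcript length, Sod2 moved past Sod3 and towards Sod1. Sod2 made up 37.4%, 38.9% and 33.9% of the summed Sod1, Sod2 and Sod3 TPM in TNF libraries 1, 2 and 3, against 6.51%, 5.59% and 5.44% in Control libraries 1, 2 and 3. The shares averaged 36.7% ± 2.58 in TNF and 5.85% ± 0.583 in Control (SD, n = 3 each), with no overlap, and the exact two-sided permutation test gave p = 0.1, the smallest that 3 against 3 allows. Sod1 held 51.2% to 58.1% of the sum in TNF libraries and 84.9% to 88.0% in Control libraries, and Sod3 held 7.96% to 9.82% in TNF libraries and 6.54% to 9.50% in Control libraries. Sod1 transcripts were thus 1.32 to 1.72 times as abundant as Sod2 transcripts in TNF libraries, against 13.1 to 16.2 times in Control libraries. The summed TPM of the dismutases was 1024 to 1477 in TNF libraries and 1006 to 1075 in Control libraries. The value of 1024 was that of TNF library 2, where 18S held 19.8% of the TPM. On CPM, which is not per length, the sum was 813 to 894 in TNF libraries and 421 to 547 in Control libraries, without overlap.

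**Figure D2:**
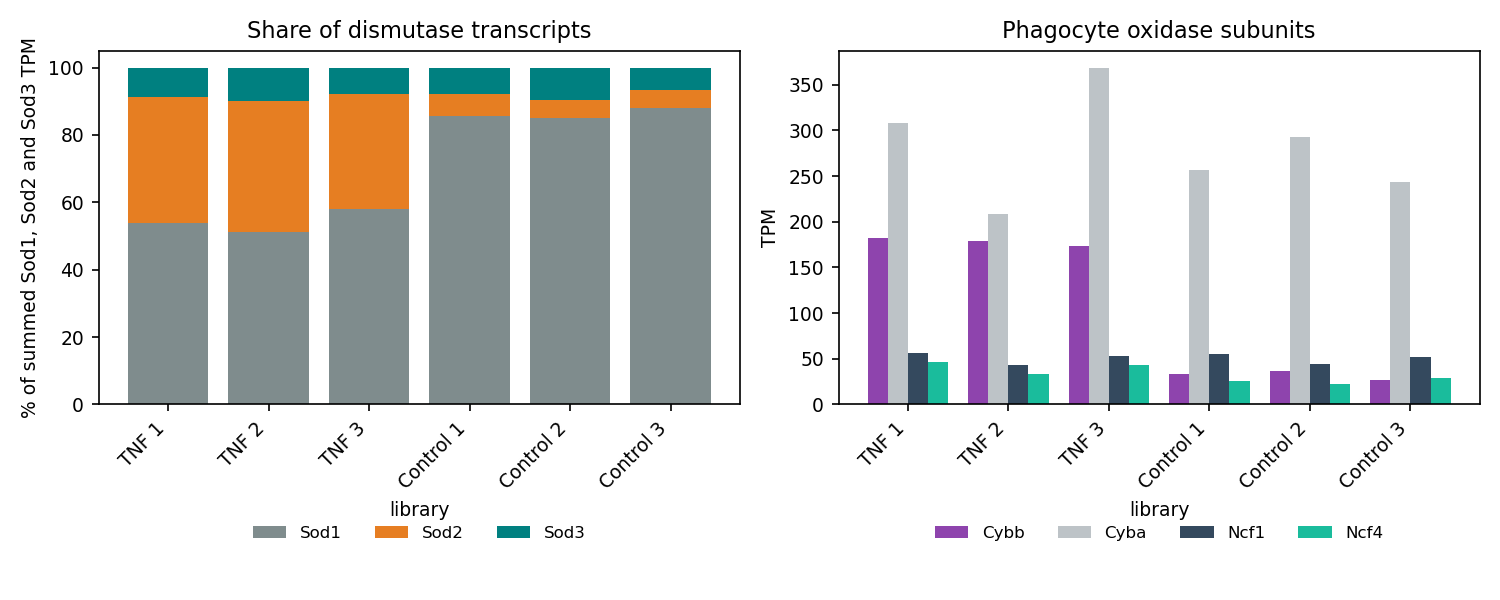
Left, the percentage of summed dismutase TPM held by Sod1, Sod2 and Sod3 in each library; right, the TPM of Cybb, Cyba, Ncf1 and Ncf4 in each library, with TNF libraries left of Control libraries. Sod2 fills 33.9% to 38.9% of the bar in TNF libraries and 5.44% to 6.51% in Control libraries, and Cybb stands at 174 to 182 TPM against 27.1 to 37.0 TPM.

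Among the enzymes that remove peroxide, neither member was called. Cat, the catalase of peroxisomes, had 236, 236 and 263.5 CPM in TNF libraries and 217, 273 and 198.5 CPM in Control libraries, and the groups overlapped. Its log2 fold change was 0.10 (95% interval -0.20 to 0.39; edgeR adjusted p = 0.600). Gpx1, the selenium-containing glutathione peroxidase of cytosol and mitochondria, had 243, 211 and 296 CPM in TNF libraries, against 304, 408 and 290.5 CPM in Control libraries. TNF library 3 lay inside the Control range. The log2 fold change of Gpx1 was -0.42 (95% interval -0.80 to -0.04; edgeR adjusted p = 0.0883). It was called lower without TNF library 3 (log2 fold change -0.56, adjusted p = 0.0450) and by DESeq2 (adjusted p = 0.0445).

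Dismutase transcripts were set against catalase and glutathione peroxidase transcripts within each library. The summed TPM of Sod1, Sod2 and Sod3 was 1.93, 1.88 and 1.85 times that of Cat and Gpx1 in TNF libraries 1, 2 and 3, against 1.17, 1.05 and 1.36 times in Control libraries 1, 2 and 3. The log2 ratio averaged 0.916 ± 0.0336 in TNF and 0.246 ± 0.186 in Control, a difference of 0.67 (exact two-sided permutation p = 0.1, the smallest possible with n = 3 each). On CPM, which is not per length, the difference was 1.07. The ratio leaves out the 10 listed partner genes of peroxide removal described below, so it does not stand for peroxide removal as a whole. Their summed level was larger than that of Cat and Gpx1, at 4145 to 5778 TPM in TNF libraries and 3700 to 4324 TPM in Control libraries.

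Cybb encodes the electron-carrying flavocytochrome subunit of the phagocyte oxidase. It had 383, 443.5 and 356 CPM in TNF libraries 1, 2 and 3, against 79.7, 102 and 65.0 CPM in Control libraries 1, 2 and 3. The groups lay well apart, and library 2 was the highest in each of them. The log2 fold change of Cybb was 2.26 ± 0.17 SE (edgeR adjusted p = 2.161e-05), the 341st highest of the 15547 tested genes. Its level was 178 ± 4.20 TPM in TNF and 32.7 ± 5.07 TPM in Control (SD, n = 3 each), 5.46 times as high by TPM.

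Cyba, whose product holds the Cybb product in the membrane and is also used by other NADPH oxidases, had 122, 96.2 and 148 CPM in TNF libraries and 96.1, 126 and 94.9 CPM in Control libraries. The groups overlapped, and the log2 fold change of 0.21 (95% interval -0.18 to 0.59) was not called (edgeR adjusted p = 0.377). Without both libraries numbered 2 it was 0.51 with an adjusted p of 0.0027. Cyba overlaps Gm20388 on the opposite strand in GENCODE M21, so the assignment of its reads carries the same uncertainty as for Sod1 and Scaf4. Cyba transcripts were 1.69, 1.17 and 2.12 times as abundant per length as Cybb transcripts in TNF libraries 1, 2 and 3, against 7.60, 7.91 and 8.97 times in Control libraries 1, 2 and 3. The log2 ratio of Cybb to Cyba TPM was -0.689 ± 0.436 in TNF and -3.03 ± 0.125 in Control, a difference of 2.34 (exact two-sided permutation p = 0.1, the smallest possible with n = 3 each).

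Of the cytosolic subunits Ncf1 and Ncf4, Ncf4 was called and Ncf1 was not. Ncf1, the organiser that carries the complex to the membrane, had 83.6, 74.0 and 79.0 CPM in TNF libraries and 77.8, 71.2 and 74.3 CPM in Control libraries. The groups overlapped, with a log2 fold change of 0.08 (95% interval -0.10 to 0.27; edgeR adjusted p = 0.466). Ncf1 overlaps Gtf2ird2 on the opposite strand in GENCODE M21, which averaged 18 CPM in TNF and 14.5 CPM in Control. Ncf4, an adaptor subunit that binds membrane phosphoinositides, had 31.5, 24.9 and 30.3 CPM in TNF libraries, against 16.9, 16.9 and 17.6 CPM in Control libraries. Its groups did not overlap, and it rose by a log2 fold change of 0.75 ± 0.10 SE (edgeR adjusted p = 0.0006795).

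By TPM, the order of the 9 levels in TNF libraries was Sod1 (709), Gpx1 (524), Sod2 (471), Cyba (295), Cybb (178), Cat (162), Sod3 (112.5), Ncf1 (50.8) and Ncf4 (41.1). In Control libraries it was Sod1 (905), Gpx1 (732), Cyba (264), Cat (158), Sod3 (83.8), Sod2 (61.3), Ncf1 (50.3), Cybb (32.7) and Ncf4 (25.5). Among neighbours in the TNF order the ranges over libraries overlapped between Sod1 and Gpx1, Gpx1 and Sod2, Cybb and Cat, and Ncf1 and Ncf4, and in the Control order only between Cybb and Ncf4. Sod2 stood at rank 3 in TNF and rank 6 in Control, and Cybb at rank 5 in TNF and rank 8 in Control.

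The genes whose course over the 6 libraries was most like that of Sod2 were Tlr2, Susd2, Stx11 and Ripk2. Their log2 CPM, centred on each gene's mean, differed from that of Sod2 by a root mean square of 0.0684 to 0.0845. Tlr2, a receptor for bacterial lipoproteins, averaged 233 ± 13.1 CPM in TNF and 29.8 ± 2.97 CPM in Control. Those most like Cybb were H2-K1, Clec5a, Igfbp3 and Gbp9, with a root mean square of 0.086 to 0.132. H2-K1, an MHC class I heavy chain whose reads may be shared with related genes, averaged 373 ± 18.1 CPM in TNF and 78.4 ± 19.9 CPM in Control. In both cases 13548 named genes were compared, and with only 2 groups any gene with a similar fold scores as alike.

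Of 12 other genes of NADPH oxidases, 7 were tested, of which 1 was higher and 2 lower in TNF, counts near the shares of 16.0% higher and 16.4% lower over all tested genes. Nox4, the oxidase of fibroblasts and other stromal cells that uses Cyba but no cytosolic subunits, fell to 11.8 ± 0.504 CPM in TNF, against 16.5 ± 1.33 CPM in Control (log2 fold change -0.48 ± 0.09 SE, edgeR adjusted p = 0.00477). Per length, Nox4 stood at 5.57 ± 0.634 TPM in TNF and 8.02 ± 1.08 TPM in Control, far below Cybb in TNF libraries.

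The remaining oxidase partners were low or uncalled. Noxo1, an organiser for other oxidases, was higher in TNF at 2.09 ± 0.119 CPM, against 1.39 ± 0.229 CPM in Control (log2 fold change 0.58). Duoxa1, a maturation factor of dual oxidases, was lower at 1.05 ± 0.128 CPM in TNF, against 1.82 ± 0.421 CPM in Control (log2 fold change -0.78). Both lost the call under some alternatives, with adjusted p up to 0.103 for Noxo1 and 0.146 for Duoxa1. The GTPases Rac1 (log2 fold change -0.13) and Rac2 (-0.02), Cybc1, a chaperone of the Cybb product (0.13), and Duox1 (-0.19) were not called. Rac2, the Rac of blood cells, had 18.8, 18.4 and 20.3 CPM in TNF libraries and 16.0, 27.0 and 15.3 CPM in Control libraries, and without Control library 2 its log2 fold change was 0.30 with an adjusted p of 0.0325. Duox2, with 4 to 11 counts in TNF libraries and 8 to 18 in Control libraries, was too low to be tested.

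**Figure D3:**
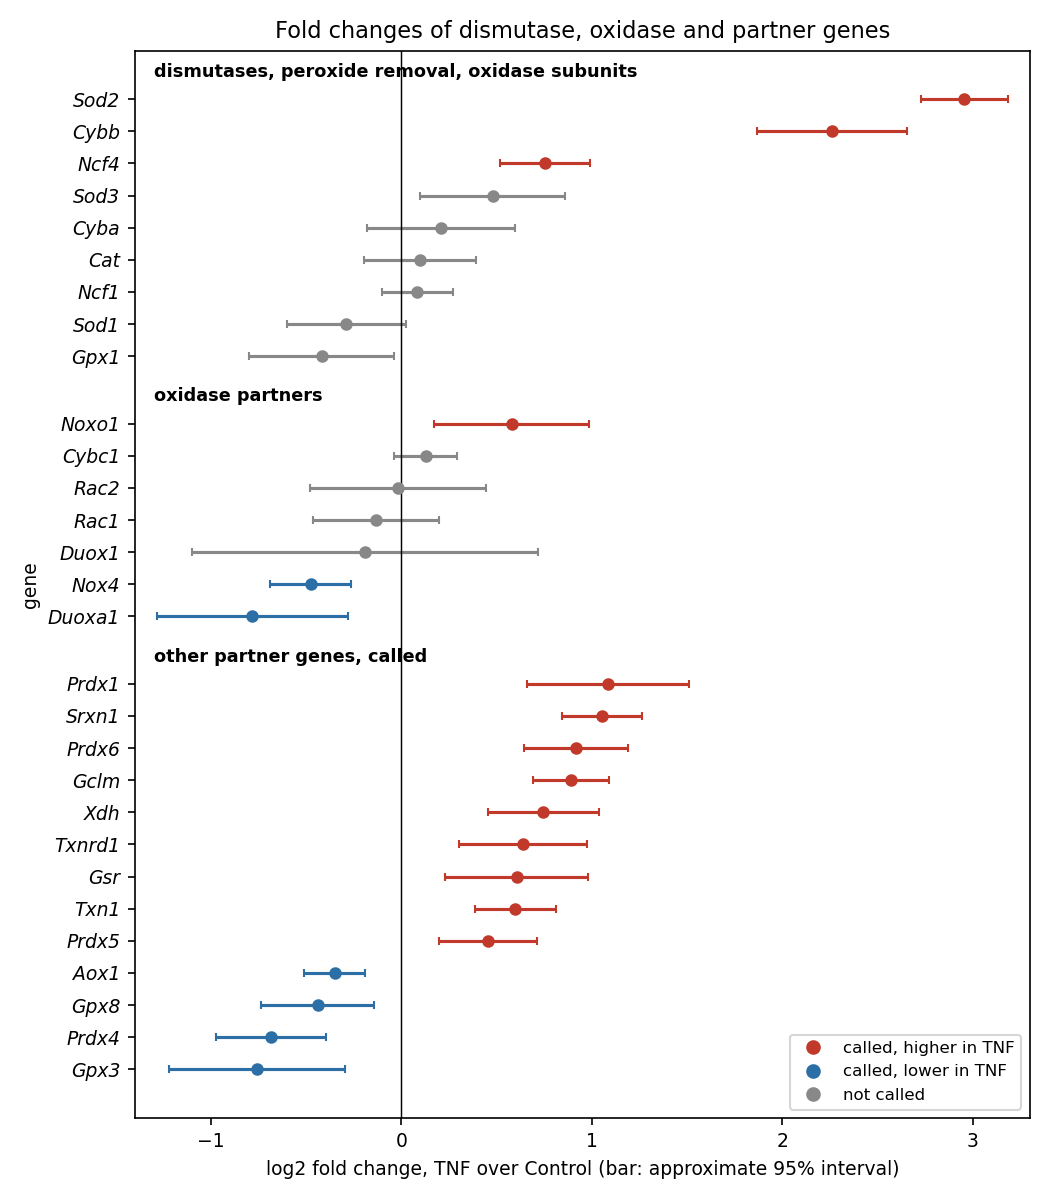
Log2 fold changes of TNF over Control with approximate 95% intervals for the 9 genes, for the tested oxidase partners and for the other called partner genes, coloured by call. Sod2 (2.96) and Cybb (2.26) stand apart from the rest, whose called changes run from -0.78 for Duoxa1 to 1.09 for Prdx1.

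Over the whole list of 39 partner genes of superoxide and peroxide handling, 29 were tested, of which 10 were higher and 6 lower in TNF, with a median log2 fold change of -0.02. Over all tested genes 16.0% were called higher and 16.4% lower, and the count of 6 lower is near that share. Of these 16 calls, 9 held under all 18 alternatives. The thioredoxin and glutathione supply genes gave 5 higher and 0 lower of 8, by edgeR, and 0 were lower at an unadjusted p under 0.05. Srxn1, sulfiredoxin, which repairs overoxidised peroxiredoxins, rose to 474 ± 22.9 CPM in TNF, against 229 ± 8.17 CPM in Control (log2 fold change 1.05). Gclm, the modifier subunit of the enzyme that starts glutathione synthesis, rose to 261 ± 9.31 CPM in TNF, against 141 ± 7.69 CPM in Control (0.89), while the catalytic subunit Gclc had 116 ± 11.6 CPM in TNF and 112 ± 10.2 CPM in Control and was not called. Txn1 (0.60), Txnrd1 (0.64) and Gsr (0.60), which carry or regenerate reducing power, also rose.

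The peroxide-removing partners split, with 3 higher and 3 lower of 10 tested, beside 16.0% higher and 16.4% lower over all tested genes. Prdx1, an abundant cytosolic peroxiredoxin, rose to 1554 ± 183 CPM in TNF, against 732.5 ± 183 CPM in Control (log2 fold change 1.09 ± 0.19 SE, edgeR adjusted p = 0.00237). Prdx6 (0.92) and Prdx5 (0.45) rose as well. Prdx4, the peroxiredoxin of the endoplasmic reticulum, fell to 54.4 ± 7.73 CPM in TNF, against 87.6 ± 10.6 CPM in Control (-0.69). The secreted Gpx3 (-0.76) and the endoplasmic reticulum enzyme Gpx8 (-0.44) were the other lower genes, named after their values were seen, as was Gsr. The call was lost under some alternatives for Gpx8 (kept in 10 of 18, adjusted p up to 0.102), Prdx5 (11 of 18, up to 0.146), and Gpx3 and Gsr (14 of 18 each, up to 0.0713 for Gpx3 and 0.0727 for Gsr). Gpx3 had 249, 214 and 227 CPM in TNF libraries, against 314, 535 and 319 CPM in Control libraries, so that Control library 2 stood far above the rest, and without it the log2 fold change was -0.46 (edgeR adjusted p = 0.00599). Gpx4, Prdx2 and Prdx3 were not called, nor were the copper carriers Ccs, which loads SOD1, and Atox1.

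Other enzymes that can yield superoxide or peroxide also went both ways. Xdh, xanthine dehydrogenase, rose to 115, 141 and 119 CPM in TNF libraries, against 87.5, 66.1 and 69.9 CPM in Control libraries (log2 fold change 0.75 ± 0.13 SE, edgeR adjusted p = 0.00231). Aox1, an aldehyde oxidase, fell to 36.2 ± 0.909 CPM in TNF, against 46.1 ± 0.837 CPM in Control (-0.35), a call kept in 16 of 18 alternatives (adjusted p up to 0.0589).

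Because Cybb, Ncf1 and Ncf4 are typical of phagocytes, their values were set beside the macrophage markers of the same libraries. Of 21 tested macrophage and monocyte markers 3 were called higher and 10 lower in TNF (median log2 fold change -0.53), beside 16.0% higher and 16.4% lower over all tested genes, and 5 were higher and 10 lower without both libraries numbered 2. The higher markers were Cd14, a lipopolysaccharide co-receptor (1.13), the transcription factor Spi1 (0.42) and the CSF1 receptor Csf1r (0.36). The largest falls were those of Cx3cr1 (-1.95), the complement genes C1qc (-1.46) and C1qb (-1.35), and Mrc1 (-1.33). Cybb was at 6.20%, 6.93% and 5.49% of the summed marker TPM in TNF libraries 1, 2 and 3, against 0.84%, 0.688% and 0.703% in Control libraries 1, 2 and 3. Ncf1 was at 1.67% to 1.91% in TNF libraries and 0.817% to 1.38% in Control libraries, and Ncf4 at 1.29% to 1.58% in TNF libraries and 0.408% to 0.746% in Control libraries. Ncf1 itself averaged 50.8 TPM in TNF and 50.3 TPM in Control, so its higher share came from the lower marker sum. The largest part of that sum was Lyz2 (mean 1321 TPM in TNF, 1986 TPM in Control), which was not called (edgeR adjusted p = 0.0768). Since Cd14, Spi1 and Csf1r were higher, the sum does not stand for every marker. The part of a change in macrophage number in these values was not tested.

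**Figure D4:**
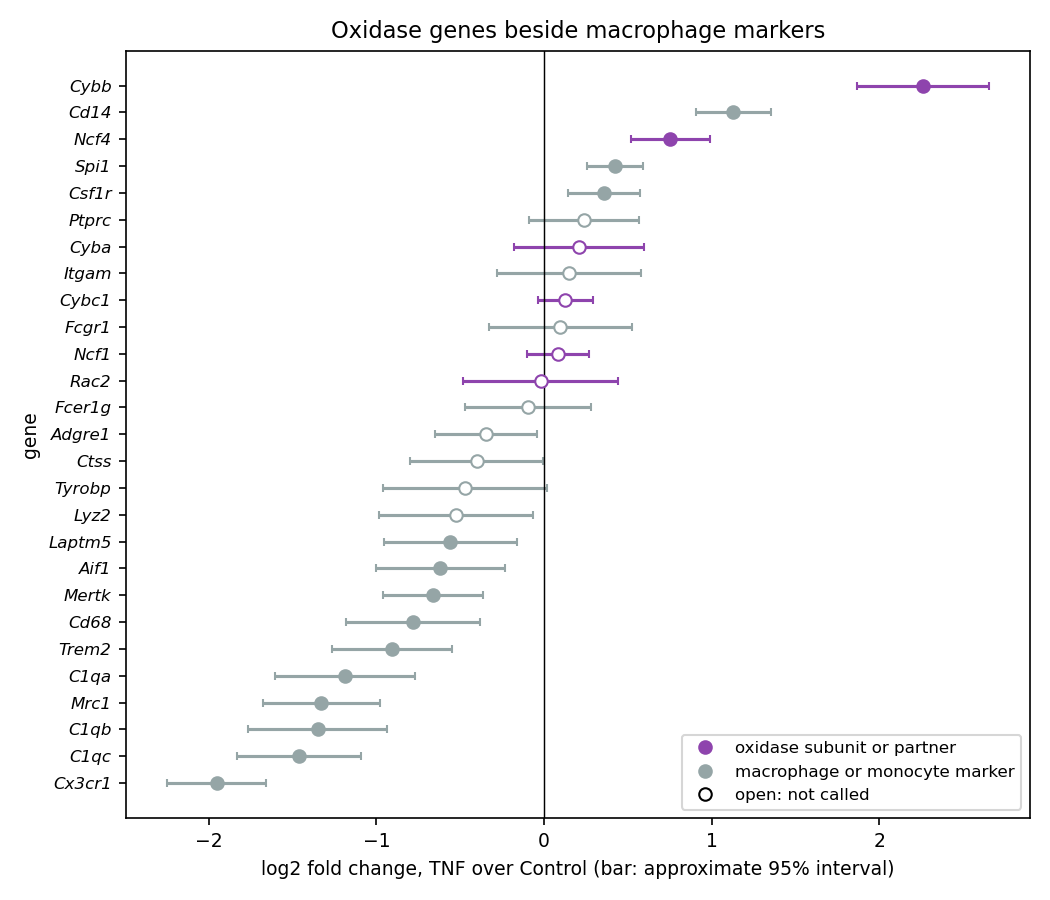
Log2 fold changes of TNF over Control with approximate 95% intervals for oxidase genes (purple) and macrophage or monocyte markers (grey), with open symbols for genes that were not called. Cybb at 2.26 lies above every marker drawn, the highest of which is Cd14 at 1.13, whereas Cyba (0.21) and Ncf1 (0.08) lie among the uncalled markers.

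Neutrophil markers were near the bottom of the measured range. Of 12 such markers 5 were listed, among which S100a8, Camp and Mmp8 were called higher, as were 16.0% of all tested genes. The summed level of the 5 was 8.62 to 12.5 TPM in TNF libraries and 2.70 to 3.47 TPM in Control libraries. Ly6g, Mpo and Elane were among the 12 but not among the listed genes. Of 7 lymphocyte markers and 5 endothelial markers 1 each was listed, at summed levels of at most 0.256 TPM and 0.0942 TPM in any library. Of 7 osteoclast markers 5 were listed, 1 called higher and 2 lower, beside 16.0% higher and 16.4% lower over all tested genes. They had 59.2 to 66.4 summed TPM in TNF libraries and 79.4 to 90.3 TPM in Control libraries, most of it from Ctsk.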

How the data were processed

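Per the submitters' processing notes, the reads were processed with Trim Galore, STAR, StringTie and Salmon on build GRCm39, in an order and with versions not given in the sources used here. The kit was SMART-Seq Stranded, per the labels' protocols. The authors deposited expected counts per gene as whole numbers, under a title that calls them normalized, and since library totals differ they were used as estimated counts. They also deposited TPM with gene symbols. The count tables were joined to gene symbols by row position, and all 260 zeros coincided. Every listed gene had at least 10 counts in at least 3 libraries.

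The count model was edgeR 4.0.16 (R 4.3.3), with filterByExpr, TMM factors and a two-sided glmQLFTest for group after glmQLFit, without covariates, and p-values were adjusted over all 15547 tested genes. The SE is the absolute log2 fold change divided by the square root of F, so intervals are approximate. Ratios within libraries were compared by exact permutation over libraries. The fit was tested on simulated data. Alternatives used limma 3.58.1 (voom, or log2 TPM with a pseudocount of 1 or 0.1), DESeq2 1.42.0, other scalings and filters, a replicate block and omitted libraries. The 9 genes, the partner list, the markers and the motifs were chosen with earlier results of these data known. Named were all 9 genes, the tested oxidase partners, up to 12 called partners by smallest adjusted p, and the 4 genes most like Sod2 and Cybb. Marker counts without both libraries numbered 2 were added after seeing the data. A further gene of the partner list is not reported here and stands in none of its counts.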

Additional observations from a re-analysis of the deposited data

How the results depend on the processing

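Sod2, Cybb and Ncf4 were called higher under all 18 alternatives, with log2 fold changes of 2.88 to 3.06, 2.12 to 2.52 and 0.66 to 0.85. DESeq2 called 5 of the 9 genes, 1 of them (Gpx1) lower, and leaving out both libraries numbered 2 called 6, all higher (Sod3, Cat and Cyba in addition). Leaving out 1 library gave 3 to 4 higher and 0 to 1 lower, the lower one without TNF library 3. Sod3 was also called with limma-voom and with TPM rescaled without 18S. Over all genes, limma on log2(TPM + 1) of genes with at least 1 TPM called 3261 in place of 5039. Higher calls numbered 1612 with library totals, 1424 and 1407 with log2(TPM + 1) and log2(TPM + 0.1), and 1316 with at least 1 TPM, in place of 2489. Among partner genes, calls ranged from 10 to 16 and lower calls from 3 to 5 when 1 library was left out (16 and 6 with all libraries, and 17 calls without both libraries numbered 2), and were fewest without TNF library 1 (10 and 3), with 3 lower also without TNF library 2. Lower calls were 3 with log2(TPM + 0.1). The cause was not tested.

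The uncalled fold change of Rac1 ranged from -0.23 to 0.03 when 1 library was left out, positive without Control library 2 (0.03), and was 0.073 without both libraries numbered 2. That of Rac2 turned to 0.023 with limma-voom, 0.24, 0.25, 0.24 and 0.32 on TPM (pseudocounts 1 and 0.1, at least 1 TPM, without 18S), 0.032 with the replicate block, 0.0084 without TNF library 2, 0.30 without Control library 2 and 0.33 without both, and was lowest at -0.16 without Control library 3. Duox1 turned to 0.11 without TNF library 1 and 0.13 without Control library 1, and was lowest at -0.62 without both libraries numbered 2. Deviations of same-numbered libraries from their group means correlated at -0.0125, -0.304 and -0.222. Each group mean rests on only 3 libraries, and both libraries numbered 2 stood out technically. These correlations therefore cannot tell whether the numbers pair the samples. With the replicate block 3980 genes, 3 of the 9 (the same 3) and 12 partner genes were called. The mean paired differences were 30.9 percentage points for the Sod2 share and 2.34 for the log2 ratio of Cybb to Cyba. For the log2 ratio of dismutases to Cat and Gpx1 the mean was 0.67. With groups of equal size these means equal the differences of group means by arithmetic, so they do not test the pairing.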

Other observations

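The count behind each TPM unit, which is proportional to the mean transcript length used in the authors' estimate, differed between the groups for Cybb. On the log2 scale, and relative to the gene's own mean over the 6 libraries, it was -0.11, -0.09 and -0.18 in TNF libraries 1, 2 and 3, against 0.13, 0.14 and 0.11 in Control libraries 1, 2 and 3. The difference of -0.25 was the 294th largest of 12321 genes with enough counts, and the other 8 genes stood within 0.05 of 0. The fold of Cybb is therefore 4.79 by CPM and 5.46 by TPM. GENCODE M21 lists coding Cybb transcripts of 4752 and 390 bases. It also lists transcripts with a retained intron of 566 and 928 bases, and one marked for nonsense-mediated decay of 792 bases. Which of all these carried the reads was not tested. Rac2 showed a similar discord in 1 library, with 16.0 CPM but 10.0 TPM in Control library 1, where Control library 3 had 15.3 CPM and 22.3 TPM.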
